A study of Homo sapiens with 12 samples.

Results

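The classical cadherins, their junction partners, vimentin and the transcription factors of epithelial-mesenchymal transition (EMT) were followed as 10 genes, CDH1, CDH2, CDH3, CTNNB1, JUP, EPCAM, VIM, ZEB1, ZEB2 and SNAI2. The genes were named by symbol and matched by Ensembl gene identifier, and all 10 were found among the 20595 genes of the deposited table, whatever their level. RNA was sequenced from 2 established human lung adenocarcinoma lines that the series describes as MDM2 amplified, A549 with wild-type p53 and H1792 with mutant p53. Each line was exposed for 48 h to the solvent DMSO or to 1 μM RG7112, a small molecule that occupies the pocket of MDM2 that binds p53, and each of the 4 groups held 3 samples. The sample names in the table carry 0.1 μM in place of the 1 μM of the labels and the methods, and the labelled dose is used here. One cell line stands for each p53 status, so that p53 status and every other difference between A549 and H1792 cannot be told apart. Nothing states that the replicates were separate cultures, so the p-values measure the spread between these samples.

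Cadherins are transmembrane proteins that bind their own kind on a neighbouring cell. Inside the cell their tails hold β-catenin (CTNNB1) or plakoglobin (JUP, also called γ-catenin), which link the contact to actin, and plakoglobin also sits in desmosomes, the contacts anchored to keratin filaments. During EMT, epithelial cells lose E-cadherin (CDH1) and often gain N-cadherin (CDH2) and the intermediate filament protein vimentin (VIM), and the repressors SNAI2, ZEB1 and ZEB2 bind E-box letters in the promoters of epithelial genes. In lung adenocarcinoma this programme is best known for its link to cell motility and invasion, and the study compared the treatments with migration, invasion and EMT in view.

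Total counts ran from 2011916 to 6218825 in the 6 A549 samples and from 2610822 to 5180412 in the 6 H1792 samples, so that 3 counts equalled 0.483 to 1.39 CPM (counts scaled to a common library total) in A549 and 0.550 to 1.26 CPM in H1792. All levels below are CPM after TMM scaling, a correction for differences in RNA composition. The 4 epithelial keratins KRT7, KRT8, KRT18 and KRT19 were present in both lines, with summed levels of 14225 to 18869 CPM in A549 with DMSO and 1741 to 2060 CPM in H1792 with DMSO. Of 7 fibroblast markers, 5 lay above 3 counts in H1792 (COL1A1, COL1A2, COL3A1, PDGFRA and PDGFRB), with a summed level of 1144 to 1375 CPM over both treatments, and LUM was at 0 in the DMSO samples. The same sum in A549 was 1.86 to 9.78 CPM. Leukocyte and endothelial markers were at or near 0, apart from CD14 in A549, and the sums of the leukocyte list, with CD3E, CD3D and LYZ at 0 in all 4 groups, stayed at or below 23.5 CPM. In A549, the p53 target genes MDM2 and CDKN1A rose with RG7112 (log2 fold changes of 2.99 and 3.58, edgeR adjusted p = 0.0102 and 0.0252). Without RG7112 replicate 3 CDKN1A was at 2.41, on leaving out DMSO replicate 1, 2 or 3 it did not pass (adjusted p from 0.0867 to 0.0960), and without DMSO replicate 2 neither did MDM2 (0.0534). In H1792 the log2 fold changes of MDM2 and CDKN1A were -0.05 and 0.15.

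The levels of the 10 genes in DMSO differed by several orders of magnitude in both lines. Per kilobase of the principal transcript, VIM led in A549 with 1720 ± 92.1 CPM per kb (SD, n = 3), followed by JUP with 148 ± 25, CTNNB1 with 84.0 ± 3.47, CDH2 with 8.08 ± 3.76, CDH1 with 2.56 ± 1.91 and ZEB1 with 1.93 ± 0.819 CPM per kb. CDH1 and ZEB1, neighbours in this order, did not differ beyond their spread in A549. ZEB2, SNAI2, EPCAM and CDH3 were each under 1 CPM per kb in A549 with DMSO. In H1792 with DMSO, VIM reached 5781 ± 141, CTNNB1 79.3 ± 0.440, CDH2 52.3 ± 3.28 and JUP 17.3 ± 3.47 CPM per kb, so that N-cadherin stood above plakoglobin, the reverse of the order in A549. ZEB1 followed with 4.08 ± 0.366, EPCAM with 1.26 ± 0.784 and ZEB2 with 1.00 ± 0.245 CPM per kb, and EPCAM and ZEB2 did not differ beyond their spread. CDH1, SNAI2 and CDH3 were each under 0.1 CPM per kb in H1792.

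**Figure D1:**
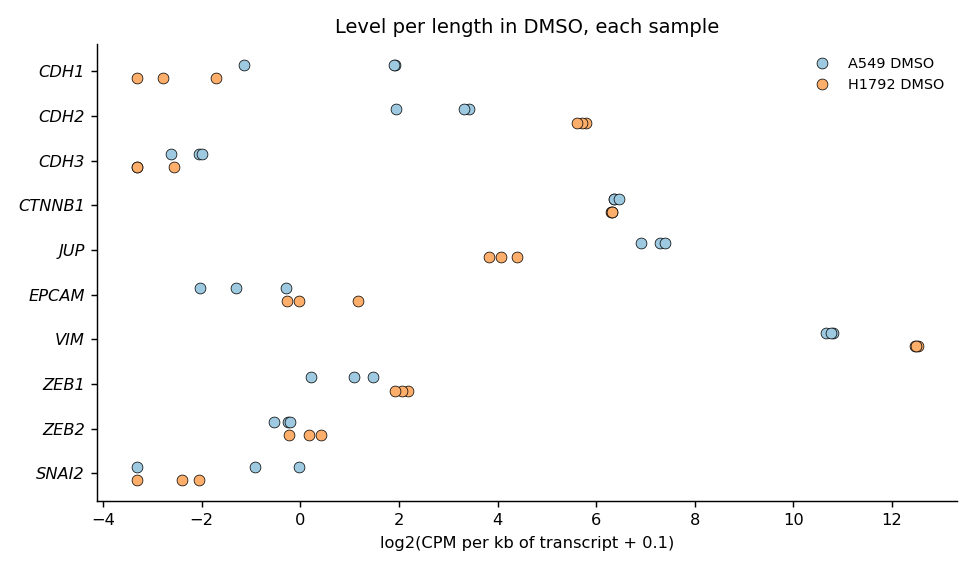
Level per kilobase of the principal transcript, on an axis of log2(CPM per kb + 0.1), for each of the 10 genes in the 3 DMSO samples of A549 (blue) and of H1792 (orange). JUP and CDH1 lie further to the right in A549, CDH2 and VIM further to the right in H1792, and CTNNB1 lies at 84.0 CPM per kb in A549 and 79.3 in H1792.

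The first comparison, between the lines in DMSO, asked which adhesion genes each line carried before the drug. The 6 genes with enough counts for the test included 4 that passed at an adjusted p under 0.05, where 49.7% of all genes tested passed. JUP was higher in A549, as were 26.5% of all genes, and CDH2, VIM and ZEB1 were higher in H1792, as were 23.2%. All 4 differed by more than 1 on the log2 scale, which 35.5% of all genes did. The levels did not overlap between the lines for 5 of the 6 tested genes, against 61.1% of all genes. With 6 genes tested, these shares describe the members only.

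Plakoglobin differed most among the tested members. JUP (ENSG00000173801, GRCh38 chr17:41754604-41786931, minus strand) measured 547, 585 and 418 CPM in the A549 DMSO samples and 73.4, 49.4 and 58.6 CPM in the H1792 DMSO samples. Every A549 sample lay far above every H1792 sample. JUP was 8.47-fold higher in A549 (log2 difference 3.08, SE 0.204, edgeR quasi-likelihood test, Benjamini-Hochberg adjusted p = 6.2e-05). Its close relative CTNNB1 (ENSG00000168036, chr3:41194741-41260096, plus strand) measured 389, 387 and 417 CPM in A549 and 374, 378 and 375 CPM in H1792. The lines differed in CTNNB1 by 0.06 on the log2 scale (SE 0.0754, adjusted p = 0.516), and with library size as the only scaling by 0.28 (adjusted p = 0.0160). That scaling moved the median log2 difference of all genes from 0.08 to 0.29, so the CTNNB1 value lay next to the median gene under both. CTNNB1 shares its locus with ULK4 on the opposite strand, and the strand setting of the counting is not given in the sources used here.

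N-cadherin and vimentin were the H1792 genes. CDH2 (ENSG00000170558, chr18:27950966-28177446, minus strand) measured 240, 228 and 212 CPM in H1792 and 16.3, 46.1 and 42.6 CPM in A549 with DMSO, and the lines did not overlap. CDH2 was 6.52-fold higher in H1792 (log2 difference -2.70 for A549 against H1792, SE 0.342, adjusted p = 0.000925). VIM (ENSG00000026025, chr10:17228259-17237593, plus strand) measured 11083, 10562 and 10750 CPM in H1792 and 3023, 3357 and 3260 CPM in A549. VIM was 3.41-fold higher in H1792 (log2 difference -1.77, SE 0.0751, adjusted p = 1.4e-05), and per length its level in A549 was still above that of each other member. Antisense genes overlap both loci, among them VIM-AS1.

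The EMT repressors were low in both lines. ZEB1 (ENSG00000148516, chr10:31318495-31529814, plus strand) measured 27.8, 25.7 and 23.2 CPM in H1792 and 16.9, 12.8 and 6.69 CPM in A549. ZEB1 was 2.13-fold higher in H1792 (log2 difference -1.09, SE 0.355, adjusted p = 0.0392). This call was lost with library size as the only scaling (adjusted p = 0.103) and on leaving out A549 DMSO replicate 2 (0.0966) or H1792 DMSO replicate 1 (0.0938), 2 (0.0886) or 3 (0.0673), with log2 differences from -0.86 to -1.18. ZEB2 (ENSG00000169554, chr2:144364364-144524583, minus strand) measured 11.8, 9.80 and 7.16 CPM in H1792 and 7.07, 7.34 and 5.70 CPM in A549, and the lines overlapped (log2 difference -0.54, SE 0.310, adjusted p = 0.191). SNAI2 (ENSG00000019549), the only member of the SNAIL family among the 10 genes, held 7, 6 and 0 counts in A549 and 1, 1 and 0 counts in H1792 and was too low for the test. SNAI1 and SNAI3 belonged to the further list of EMT transcription factors, of which 7 of 10 were in the deposited table. Neither was called in any comparison. Of the list, 4 genes were tested in A549 and 6 in each other comparison. A missing call therefore does not show that SNAI1 or SNAI3 was unchanged.

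E-cadherin did not reach the filter on low counts in this comparison. CDH1 (ENSG00000039068, chr16:68737225-68835548, plus strand) held 59, 101 and 7 counts in the A549 DMSO samples and 3, 1 and 0 counts in the H1792 DMSO samples. The groups did not overlap, and the summed counts, 167 against 4, gave a depth-adjusted ratio of 31.8 (95% interval 12.2 to 118, counting error only). An exact two-sided permutation test gave p = 0.1, the lowest value possible with 3 samples in each group. At 3, 1 and 0 counts in H1792, CDH1 could pass the filter only through A549, where it was high. It stayed untested with DESeq2, limma, the other scalings and the GC correction described below, and without A549 DMSO replicate 1 or 2. Without A549 DMSO replicate 3, the lowest of its group, CDH1 entered the edgeR test and was higher in A549 (log2 difference 5.33, SE 0.719, adjusted p = 0.00202). It also passed with no filter (4.80, adjusted p = 0.0155), with all 12 samples in the fit (4.77, adjusted p = 0.00515) and without H1792 DMSO replicate 1 (6.17, adjusted p = 0.0263) or 3 (4.39, adjusted p = 0.0447), but not without replicate 2 of the same group (adjusted p = 0.0584). A549 DMSO replicate 3, with 1.73 CPM against 18.1 and 17.6 CPM in the other two, lay closer to H1792 than to its own group. The neighbouring gene CDH3, which encodes P-cadherin, held 8 counts in all 3 A549 DMSO samples together and 1 in those of H1792. EPCAM, an epithelial surface protein that marks most carcinomas, held 4, 3 and 1 counts in A549 and 11, 7 and 3 counts in H1792, so the line with less E-cadherin had the higher EPCAM values (exact permutation p = 0.1, both groups close to the level of 3 counts).

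**Figure D2:**
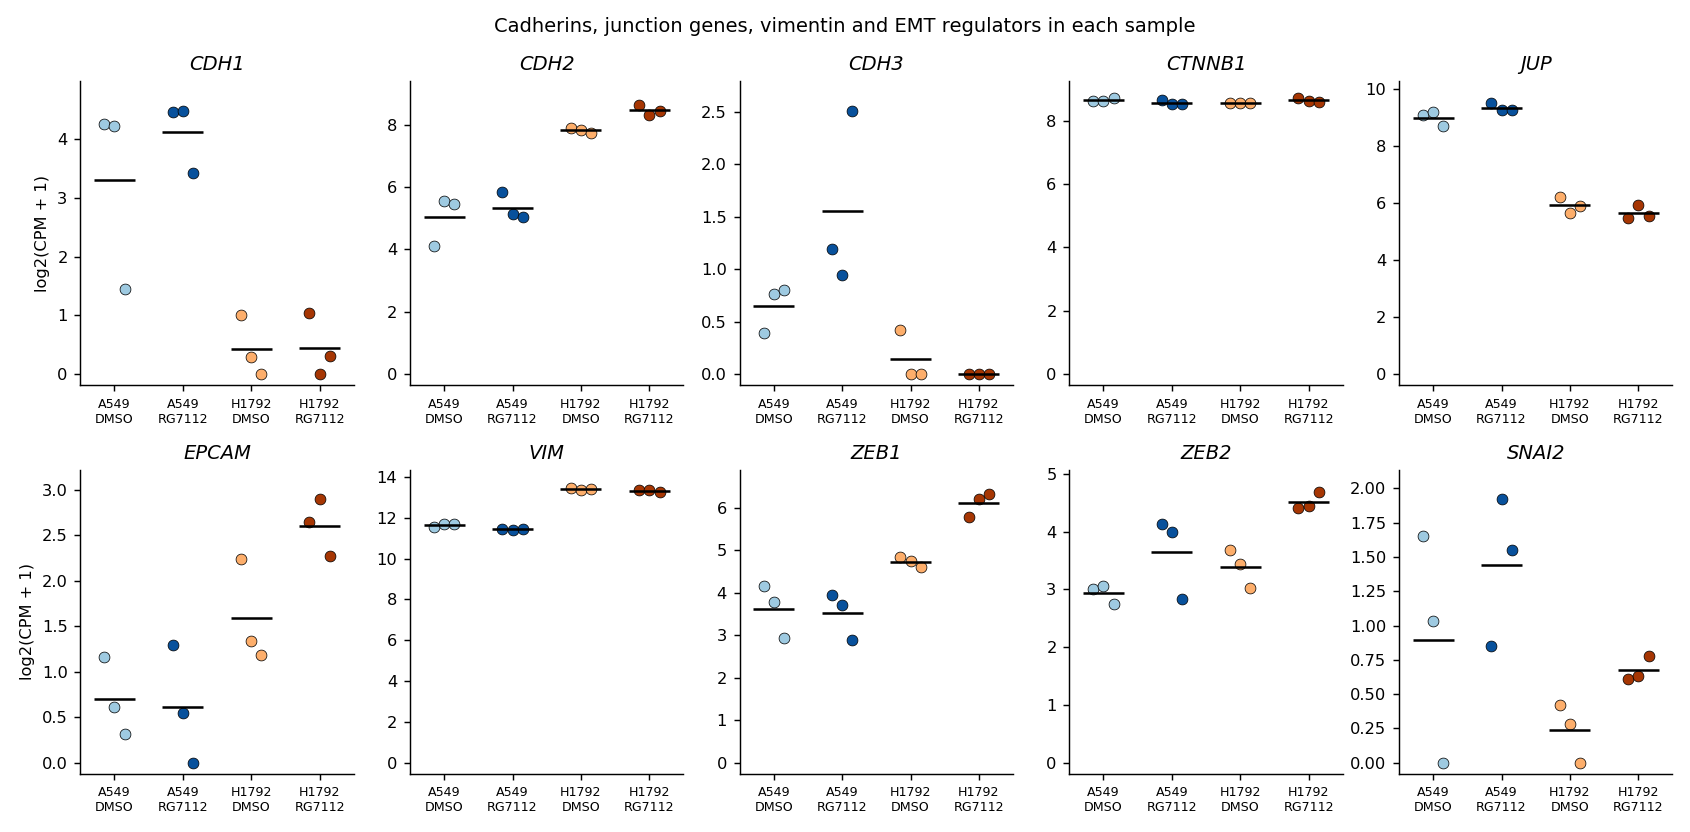
Level of each of the 10 genes as log2(CPM + 1) in each of the 12 samples (points, replicates 1 to 3 from left to right) with the mean of each group (bars), and each panel has its own vertical scale. CDH1 is at 1.73 CPM in A549 DMSO replicate 3, and ZEB1, ZEB2 and CDH2 are higher in all 3 H1792 samples with RG7112 than in the 3 with DMSO.

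In A549, the second comparison asked how the genes moved with RG7112 where p53 is wild type. Of 7 members tested, 0 passed (edgeR adjusted p from 0.256 to 0.880), and 0 had an unadjusted p under 0.05, while 8.38% of all genes passed, 4.35% higher and 4.03% lower with the drug. DESeq2 likewise called 0 of them, with 1 at an unadjusted p under 0.05.

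Of the tested members in A549, JUP and VIM had treatment groups that did not overlap, 2 of 7 against 31.7% of all genes. JUP measured 547, 585 and 418 CPM with DMSO and 727, 612 and 622 CPM with RG7112 (log2 fold change 0.33, SE 0.154, adjusted p = 0.256). VIM measured 3023, 3357 and 3260 CPM with DMSO and 2808, 2708 and 2811 CPM with RG7112 (log2 fold change -0.22, SE 0.107, adjusted p = 0.259). Neither difference passed the test. ZEB2 had the largest fitted value, with 7.07, 7.34 and 5.70 CPM with DMSO and 16.6, 14.8 and 6.09 CPM with RG7112 (log2 fold change 0.88, SE 0.425, adjusted p = 0.263). RG7112 replicates 1 and 2 were high and replicate 3 lay within the DMSO values.

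The CDH1 value in A549 depended on single libraries. Its counts were 59, 101 and 7 with DMSO and 131, 46 and 35 with RG7112, which correspond to 18.1, 17.6 and 1.73 CPM against 21.1, 21.3 and 9.69 CPM. Replicate 3 was the lowest of both treatments. The log2 fold change of 0.46 (SE 0.744, adjusted p = 0.763) became -0.05 without DMSO replicate 3. CDH2 changed by 0.20 (SE 0.409, adjusted p = 0.816) and turned negative without DMSO replicate 1 (-0.13) or RG7112 replicate 1 (-0.08). ZEB1 changed by -0.15 (SE 0.452, adjusted p = 0.880), with replicate 3 again the lowest of each treatment, 6.69 and 6.37 CPM, and its sign turned without DMSO replicate 1 (0.17), without RG7112 replicate 3 (0.14) and with the GC correction described below (0.06). CTNNB1 changed by -0.10 (SE 0.111, adjusted p = 0.653). CDH3 held 1, 4 and 3 counts with DMSO and 8, 2 and 17 with RG7112, SNAI2 7, 6 and 0 against 5, 6 and 7, and EPCAM 4, 3 and 1 against 9, 1 and 0, all too low for the edgeR test. CDH3 did not overlap between the treatments (0.583 ± 0.240 CPM with DMSO and 2.31 ± 2.09 CPM with RG7112, exact permutation p = 0.1, the smallest possible), while SNAI2 and EPCAM did (exact permutation p = 0.5 and 0.9).

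In H1792, the same question was put to cells with mutant p53. ZEB1, ZEB2 and CDH2 rose with RG7112, and 0 members fell. These were 3 of the 7 tested, where 34.1% of all genes passed, 17.7% higher and 16.5% lower, so the share of members that passed was close to that of all genes. ZEB1 and ZEB2 also rose by more than 1 on the log2 scale, as did 10.3% of all genes. The treatments did not overlap for 6 of the 7 tested members, against 52.6% of all genes. The median log2 fold change was 0.62 over the 7 members tested and 0.01 over all genes tested. The member median is the value of CDH2, and genes within 2 percentage points of its GC content had a median of 0.42.

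ZEB1, a zinc finger and homeodomain repressor of CDH1, moved most among the 3. It measured 27.8, 25.7 and 23.2 CPM with DMSO and 54.2, 73.3 and 79.6 CPM with RG7112. Every treated sample lay well above every control sample. The change was 2.66-fold (log2 fold change 1.41, SE 0.184, adjusted p = 0.00404). ZEB2, its relative with a like arrangement of zinc fingers, measured 11.8, 9.80 and 7.16 CPM with DMSO and 20.3, 20.7 and 24.8 CPM with RG7112, a 2.23-fold change (log2 fold change 1.16, SE 0.242, adjusted p = 0.0132). It lost its call without RG7112 replicate 3 (adjusted p = 0.0501). CDH2 measured 240, 228 and 212 CPM with DMSO and 401, 317 and 347 CPM with RG7112, a 1.54-fold change (log2 fold change 0.62, SE 0.106, adjusted p = 0.00713). With all 12 samples in the fit CDH2 did not pass (0.55, SE 0.297, adjusted p = 0.202). All treated samples lay above all control samples for each of the 3 genes.

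In H1792 the changes moved with the base composition of the genes, and the 3 members that rose are low in GC. Across 9165 genes with a known GC content, Spearman's rho between GC content and log2 fold change was -0.472 in H1792 and, over 9941 genes, 0.255 in A549 (across genes, which are not independent replicates). The exons of ZEB1, ZEB2 and CDH2 have GC contents of 41.4%, 41.5% and 43.8%, and genes within 2 percentage points of these had median log2 fold changes of 0.51, 0.50 and 0.42 in H1792. With a correction for GC content in each sample, ZEB1 still rose (0.95, adjusted p = 0.00829), while ZEB2 (0.71, adjusted p = 0.0580) and CDH2 (0.28, adjusted p = 0.143) no longer passed. Whether this trend arose in the libraries or in the cells was not tested. Without replicate 3 of both treatments, 0 genes passed in H1792 by edgeR (3215 at an unadjusted p under 0.05), and ZEB1, ZEB2 and CDH2 stood at log2 fold changes of 1.23, 0.90 and 0.59 with adjusted p-values of 0.0606, 0.104 and 0.0812. With library size as the only scaling, the median of all genes in H1792 moved from 0.01 to 0.27 and the share of calls that were higher with RG7112 from 51.8% to 75.7%.

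**Figure D3:**
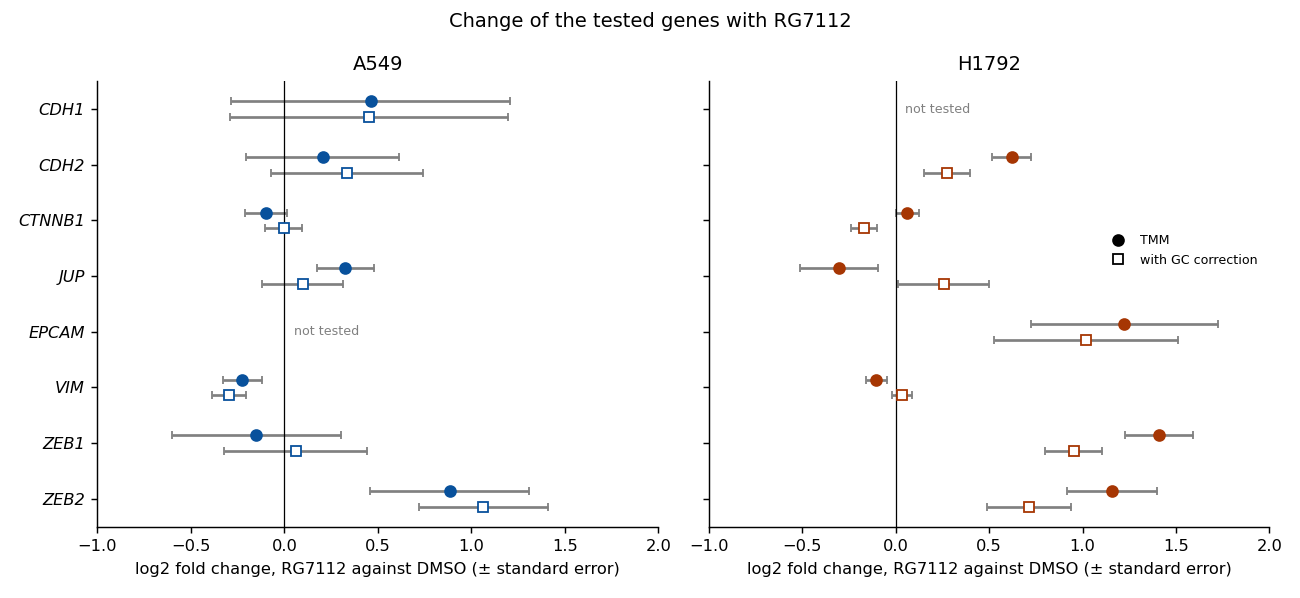
Log2 fold change with RG7112 against DMSO, with its standard error, for the tested genes in A549 (left) and H1792 (right), after TMM scaling (filled circles) and with the correction for GC content (open squares). In H1792 ZEB1 lies at 1.41 and at 0.95 with the correction, CDH2 moves from 0.62 to 0.28, and JUP moves across 0, from -0.30 to 0.26.

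The remaining H1792 members did not pass. VIM measured 11083, 10562 and 10750 CPM with DMSO and 10410, 10375 and 9926 CPM with RG7112, with no overlap (log2 fold change -0.10, SE 0.0547, adjusted p = 0.192), but the sign depended on the scaling, since it was 0.16 (adjusted p = 0.0488) with library size alone and 0.03 with the GC correction. CTNNB1 measured 374, 378 and 375 CPM with DMSO and 419, 394 and 385 CPM with RG7112 (0.06, SE 0.0613, adjusted p = 0.461), and was at 0.32 (adjusted p = 0.00593) with library size alone and at -0.17 with the GC correction. JUP, at a GC content of 61.9%, measured 73.4, 49.4 and 58.6 CPM with DMSO and 43.2, 60.7 and 45.5 CPM with RG7112 (-0.30, SE 0.207, adjusted p = 0.295), and was at 0.26 with the GC correction. EPCAM rested on few counts, 11, 7 and 3 with DMSO and 20, 35 and 16 with RG7112, and its log2 fold change of 1.22 (SE 0.50) had an adjusted p of 0.102. Without DMSO replicate 1, the highest control sample, it was 1.83 with an adjusted p of 0.0373. EPCAM entered the test only through the RG7112 samples. CDH1 held 4, 0 and 1 counts with RG7112 and 3, 1 and 0 with DMSO (exact permutation p = 0.8), and CDH3 was at 0 in all 3 treated samples, which allows up to 0.550 to 0.790 CPM in each. SNAI2 held 2, 3 and 3 counts with RG7112 and 1, 1 and 0 with DMSO, without overlap (0.597 ± 0.103 and 0.185 ± 0.172 CPM, exact permutation p = 0.1, the smallest possible), with both groups at or below the level of 3 counts.

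Whether the 2 lines differed in their response was tested as the difference of their log2 fold changes over all 12 samples. Of 8 members tested, 0 passed by edgeR, while 21.8% of all genes did, and 2 members (ZEB1 and JUP) had an unadjusted p under 0.05. The ZEB1 response was lower in A549 than in H1792 by a log2 difference of -1.48 (SE 0.493, adjusted p = 0.0537), and the JUP response was higher in A549 by 0.70 (SE 0.247, adjusted p = 0.0671). DESeq2 called both (adjusted p = 0.0262 and 0.0280). Over 22 alternatives, DESeq2 among them, ZEB1 passed in 7, and its adjusted p ran from 0.0154 without A549 DMSO replicate 3 to 0.187 with the GC correction, where the difference was -0.83. JUP turned to -0.05 with the GC correction. For ZEB2 and CDH2, which rose in H1792 and did not pass in A549, the differences of -0.20 (SE 0.497, adjusted p = 0.818) and -0.34 (SE 0.432, adjusted p = 0.605) did not show a difference between the lines. In A549, genes within 2 percentage points of the GC content of ZEB1 and ZEB2 had median log2 fold changes of -0.21 and -0.21, the opposite sign to H1792.

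Ratios of 2 members within a sample do not depend on scaling between samples, and they were taken after the levels had been seen. They still carry the trend with GC content, which was 61.9% for JUP, 52.7% for VIM, 46.1% for CTNNB1 and 43.8% for CDH2. Plakoglobin and β-catenin compete for the same site on cadherin tails, and in A549 the ratio of JUP to CTNNB1 counts was 1.41, 1.51 and 1.00 with DMSO and 1.82, 1.68 and 1.71 with RG7112. The treated samples were all above the control samples (means 1.31 ± 0.267 and 1.74 ± 0.0730, SD, n = 3, exact permutation p = 0.1, the smallest possible). In H1792 the ratio was 0.161 ± 0.0332 with DMSO and 0.125 ± 0.0262 with RG7112, and the samples overlapped (exact permutation p = 0.2). The ratio of CDH2 to CTNNB1 in H1792 went from 0.643, 0.603 and 0.565 to 0.958, 0.806 and 0.900 without overlap (exact permutation p = 0.1). The ratio of VIM to CTNNB1 was lower with RG7112 in both lines without overlap, at 8.09 ± 0.501 against 7.41 ± 0.355 in A549 and 28.8 ± 0.859 against 25.7 ± 0.745 in H1792 (exact permutation p = 0.1 in each). With the GC correction, the log2 fold changes in H1792 were 0.03 for VIM and -0.17 for CTNNB1, the reverse order. In A549, JUP stood at 0.10 and CTNNB1 at -0.0045, closer together than without it (0.33 and -0.10). VIM in A549 (-0.29) stayed below CTNNB1 and CDH2 in H1792 (0.28) above it. The ratios themselves were not corrected.

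The ZEB2 to ZEB1 ratio separated the treatments in A549 but not in H1792. In A549 it was 0.418, 0.575 and 0.852 with DMSO and 1.14, 1.23 and 0.957 with RG7112 (exact permutation p = 0.1), and in H1792 it was 0.427, 0.381 and 0.309 against 0.374, 0.283 and 0.311 (exact permutation p = 0.3), where both genes rose. The closest A549 values, those of replicate 3, came from 23 counts of ZEB2 and 27 of ZEB1 with DMSO and 22 and 23 with RG7112. The separation there rests on a few counts. The difference between the lines in this ratio was not tested. The classical cadherin ratio, CDH2 to CDH1, was 0.898, 2.61 and 24.6 in the A549 DMSO samples and 2.66, 1.59 and 3.31 in the RG7112 samples. A549 DMSO replicate 3, with its 7 counts of CDH1, alone carried the high value. In H1792 the ratio was at least 237 in every sample in which CDH1 had a count.

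**Figure D4:**
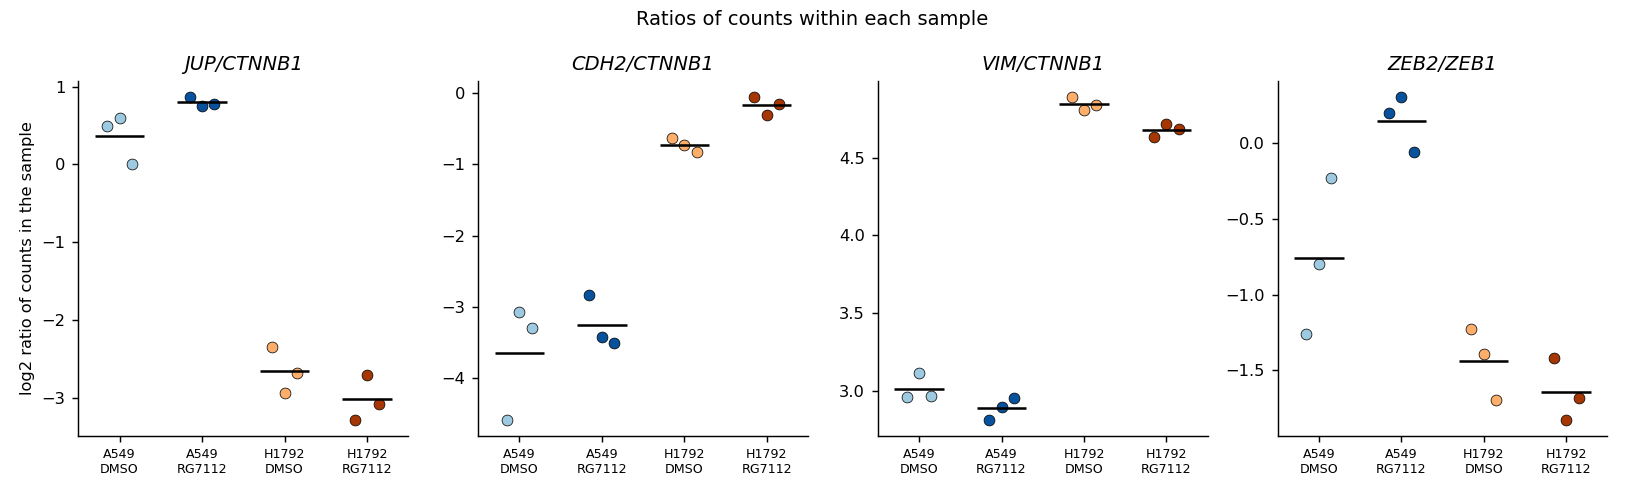
Log2 ratio of the counts of 2 genes within each sample (points, with the mean of each group as a bar) for JUP to CTNNB1, CDH2 to CTNNB1, VIM to CTNNB1 and ZEB2 to ZEB1, and each panel has its own vertical scale. JUP to CTNNB1 in A549 lies between 1.00 and 1.51 with DMSO and between 1.68 and 1.82 with RG7112 before the logarithm.

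The promoters of the members were read for the E-box that ZEB and SNAIL proteins bind. A RefSeq table of starts (GRCh38.p14) matched 6 of the 10 genes (CDH2, VIM, ZEB1, ZEB2, CTNNB1 and JUP, 14 starts in all), and CDH1, CDH3, SNAI2 and EPCAM were not matched. CAGGTG on either strand (read as CAGGTG or CACCTG, with no other motif searched) occurred in the 250 bases before 3 of the 14 starts, 2 of the 7 of ZEB1 and 1 of the 2 of JUP, against 17.5% of all 35116 windows of that length. ZEB1 and JUP are shown because they were the only 2 of the 6 matched genes with the E-box. Matches are given for starts shared by a GENCODE transcript, with the E-box letters in capitals.
ZEB1, 242 bases before the start at chr10:31318966-31318989, plus strand: ccccaccaCACCTGaggaaaactt
ZEB1, 85 bases before the same start at chr10:31319121-31319146, plus strand: tgtcgtaaacCAGGTGcggtggggag
JUP, 54 and 43 bases before the start at chr17:41786008-41786036, minus strand: tggcccCACCTGccgagCAGGTGagcgca
In GENCODE v29 (GRCh38), the first stretch lies in exons of ZEB1 and of the antisense gene ZEB1-AS1, the second partly in an untranslated exon of another ZEB1 transcript and the JUP stretch in an untranslated exon of other JUP transcripts. A match describes the letters alone.

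The other genes of cell adhesion and EMT also differed between the lines. Of 13 epithelial transcription and splicing factors, 5 had enough counts for the test. Of these, 4 were higher in A549 and 0 in H1792, where 26.5% and 23.2% of all genes were. Their median log2 difference was 4.06, against 0.08 over all genes. ELF3, EHF and KLF5, at 23, 2 and 12 counts in H1792 with DMSO, entered the test only through A549. The count and the median therefore follow in part from the filter on low counts. ELF3, an ETS factor of epithelia, measured 813 ± 62.5 CPM in A549 and 2.37 ± 0.589 CPM in H1792 (log2 difference 8.41, SE 0.165, adjusted p = 2.5e-06), and KLF5 19.3 ± 5.99 and 0.979 ± 1.04 CPM. Among EMT transcription factors, 4 of 6 tested were higher in H1792 and 0 in A549, where 23.2% and 26.5% of all genes were. PRRX1 and FOXC2, at 1 and 18 counts in A549 with DMSO, entered the test only through H1792. PRRX1 held 290 counts in the H1792 DMSO samples and 1 in those of A549, and FOXC2 measured 15.0 ± 9.29 CPM in H1792 and 1.27 ± 1.16 CPM in A549, a call lost without replicate 1 of A549 (adjusted p = 0.0580) or of H1792 (0.0585). TCF4 was 3.37-fold higher in H1792 (adjusted p = 0.00288).

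Over all 11 further lists, 46 of 73 genes tested passed, 32 higher in A549 and 14 higher in H1792. Of all genes 49.7% passed, 26.5% higher in A549 and 23.2% higher in H1792. Genes near 0 in H1792, such as CLDN2, TJP3, F11R, DSP, DSC3 and PLEKHA7, entered the test only through A549. The counts by direction in these lists therefore follow in part from the filter on low counts. Of 8 tight junction genes and EPCAM partners tested, 6 were higher in A549 and 0 lower, with CLDN2, a pore-forming claudin, at 1103 counts in A549 and 1 in H1792, F11R at 290 and 6, and TJP3 at 204 and 0, which makes TJP3 at least 15.5-fold higher in A549 against a level of 3 counts in each library. Of 4 desmosome genes tested, 2 were higher in A549, desmoplakin (DSP, 324 counts against 2) and desmocollin 3 (DSC3, 54 against 0, at least 4.21-fold by the same bound), and desmoglein 2 (DSG2, named after its values were seen) was listed at 0 in every sample. Of 9 adherens junction partners tested, 5 were higher in A549, including vinculin (VCL, 4.99-fold, adjusted p = 0.0186, lost without A549 DMSO replicate 1 or 2 or H1792 DMSO replicate 1 or 3, up to 0.0594), ADAM10, the protease that sheds cadherins (3.40-fold, adjusted p = 0.00118), and PLEKHA7 (426 counts against 3). α-catenin (CTNNA1) was 1.5-fold higher in H1792 (adjusted p = 0.0109), a call lost with library size as the only scaling. Other cadherins were split, with CDH13, a cadherin without a cytoplasmic tail, at 1337 counts in H1792 and 5 in A549, and CDH17 and CDH23 at 106 and 137 counts in A549 and 2 and 3 in H1792.

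The mesenchymal and signalling lists did not all lean to H1792. Of all genes tested, 26.5% were higher in A549 and 23.2% higher in H1792, and the counts below describe these short lists only. Of 8 mesenchymal genes tested, fibronectin (FN1, 4.30-fold, adjusted p = 0.00101) and SPARC (37.9-fold, adjusted p = 1.7e-05) were higher in H1792 with vimentin, whereas S100A4 (55.1-fold, adjusted p = 4.6e-05) and plectin (PLEC) were higher in A549. Of 11 genes of TGF-β signalling, a classical inducer of EMT, 6 were higher in A549 and 0 lower, led by the inhibitory SMAD6 (20.9-fold, adjusted p = 7.9e-05) and the receptors TGFBR1 (14.3-fold, adjusted p = 0.0154) and TGFBR3 (11.8-fold, adjusted p = 0.000990). TGFBR1 and TGFBR3, at 10 and 8 counts in H1792 with DMSO, entered the test only through A549. On leaving out single samples the log2 difference of TGFBR1, 3.84, ran from 3.07 without H1792 DMSO replicate 2 to 5.75 without H1792 DMSO replicate 3, and the call was lost without replicate 1 of A549 (adjusted p = 0.0501) or of H1792 (0.0548). Of 6 genes of β-catenin turnover, AXIN1 and CTNNBIP1 (2.84-fold, adjusted p = 0.00173) were higher in H1792. Of 6 β-catenin partners and targets, MYC (5.70-fold, adjusted p = 5.0e-05), TCF7 (6.88-fold, adjusted p = 0.00200) and ZNRF3 were higher in H1792 and CCND1 (45.6-fold, adjusted p = 0.00845) in A549. CCND1, at 17 counts in H1792 with DMSO, entered the test only through A549. The 4 keratins were all higher in A549, from 1.56-fold for KRT7 to 23.1-fold for KRT19.

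With RG7112 in A549, 5 of 75 genes tested over the same 11 lists passed, 4 higher and 1 lower, where 8.38% of all genes did. NECTIN4, an adhesion molecule of adherens junctions, went from 2 to 83 counts, DSC3 rose 4.43-fold (log2 fold change 2.15, SE 0.335, adjusted p = 0.0109, lost without DMSO replicate 1 or 2 or RG7112 replicate 1, up to 0.0612), PLEC rose 1.65-fold (lost with the GC correction, adjusted p = 0.174) and KRT19 2.4-fold (adjusted p = 0.0157 and 0.00602). NECTIN4, at 2 counts with DMSO, entered the test only through RG7112. MYC fell from 83.7 ± 14.7 to 33.8 ± 5.77 CPM (log2 fold change -1.32, SE 0.197, adjusted p = 0.00949), a call lost without DMSO replicate 2 (adjusted p = 0.0520).

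In H1792 with RG7112, 29 of 60 genes tested over the 11 lists passed, 20 higher and 9 lower, where 34.1% of all genes passed, 17.7% higher and 16.5% lower. Of 7 adherens junction partners tested, 4 rose, with ADAM10 at 2.70-fold (adjusted p = 0.00362), VCL at 2.62-fold (adjusted p = 0.0468), p120-catenin (CTNND1), which holds cadherins at the membrane, at 2.62-fold (adjusted p = 0.00272) and CBLL1, and 2 fell, NECTIN2 (log2 fold change -0.58, adjusted p = 0.00653) and CTNNA1 (-0.25, adjusted p = 0.0423, but 0.01 with library size as the only scaling). With the GC correction, ADAM10 and CTNND1 still rose, and VCL, CBLL1 and NECTIN2 did not pass. VCL lost its call in 10 of 18 alternatives, among them the omission of any single sample other than DMSO replicate 2 (adjusted p up to 0.144). CDH13 rose from 138 ± 16.6 to 322 ± 30.6 CPM (adjusted p = 0.00300). The tight junction scaffold TJP1 rose 3.02-fold and CLDN12 3.97-fold (adjusted p = 0.00305 and 0.00448), 2 of the 5 tested.

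Mesenchymal genes and EMT regulators rose in part in H1792, and keratins fell. Of 6 EMT factors tested, PRRX1 (2.25-fold, adjusted p = 0.00567, lost in 2 of 18 alternatives) and TCF4 rose. Of 9 mesenchymal genes FN1 (2.03-fold, adjusted p = 0.00571), AXL and CD44 rose, with 0 lower in either list. Among all genes tested 17.7% rose and 16.5% fell, and with 6 and 9 genes these counts describe the lists only. The epithelial factor FOXA1 rose as well (2.20-fold, adjusted p = 0.0253). That call was lost in 7 of 18 alternatives, among them the omission of DMSO replicate 1 or 2 or RG7112 replicate 2 or 3 (adjusted p up to 0.0866). In TGF-β signalling, SMAD3 (3.09-fold, adjusted p = 0.00490), SMAD4 (2.59-fold, adjusted p = 0.00531) and SMAD2 rose, 3 of 8 tested. CCND1 went from 1.53 ± 0.791 to 92.1 ± 33.0 CPM (adjusted p = 0.00272), and MYC and CSNK1A1 rose. TCF7 and AXIN1 fell, although AXIN1, at -0.32, turned to 0.31 with the GC correction (adjusted p = 0.0413), and BTRC fell from 16.8 ± 9.98 to 0.866 ± 0.850 CPM (adjusted p = 0.0110). CCND1, at 17 counts with DMSO, entered the test only through RG7112, and BTRC, at 13 counts with RG7112, only through DMSO. The calls of CCND1 and BTRC therefore follow in part from the filter on low counts. With the GC correction TCF7, TCF4, SMAD2 and CD44 did not pass. All 4 keratins fell, KRT18 most (log2 fold change -1.04, adjusted p = 0.00437), and with the GC correction 2 of them did, KRT7 and KRT18. The summed fibroblast markers ranged from 1321 to 1375 CPM with DMSO and from 1144 to 1335 CPM with RG7112 in H1792, and PDGFRB rose (log2 fold change 2.93, adjusted p = 0.0220, 1 of 4 tested), and their part in the result was not tested.

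**Figure D5:**
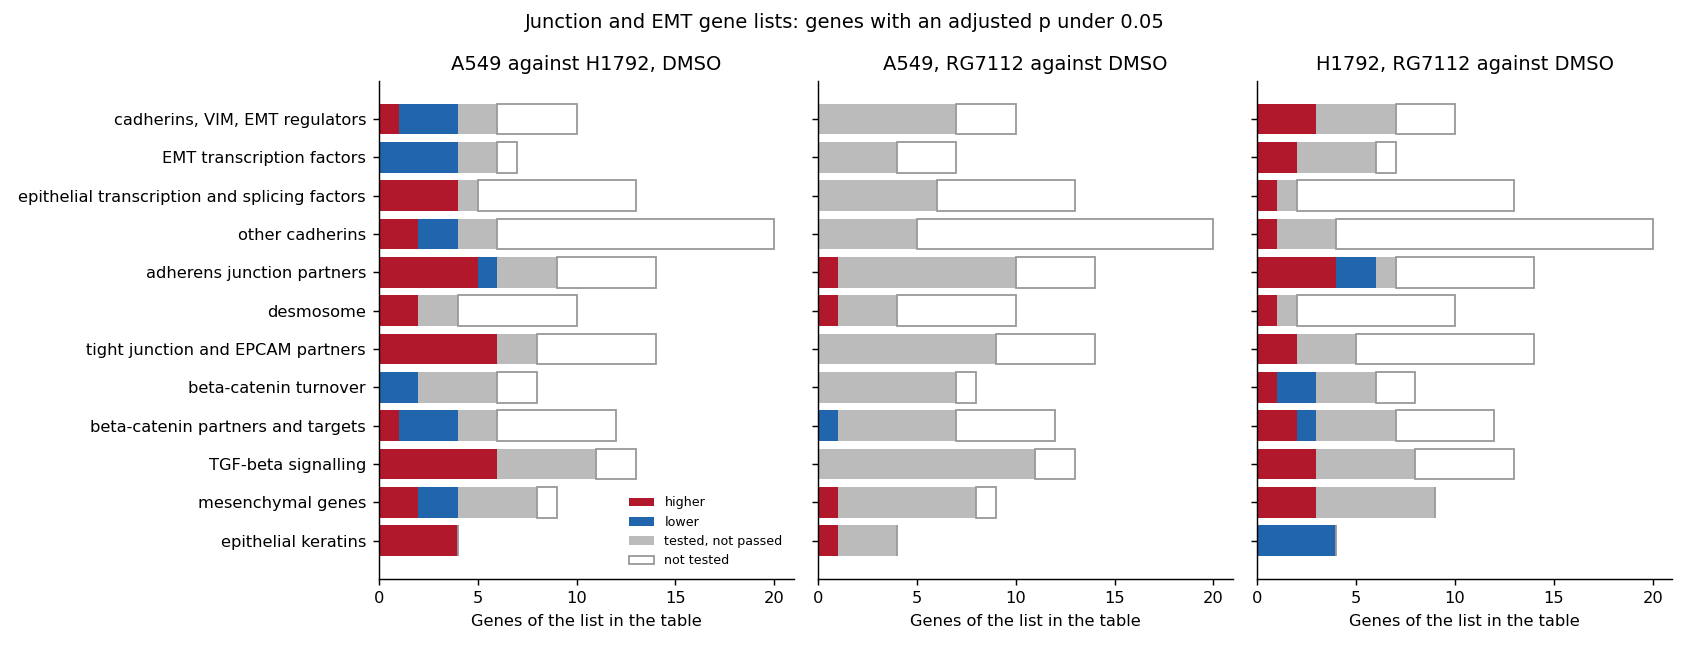
Number of genes of each list that were higher (red), lower (blue), tested without passing (grey) or not tested (open) at an adjusted p under 0.05, for A549 against H1792 in DMSO and for RG7112 against DMSO in each line. For the top list of 10 genes the counts are 1 higher and 3 lower between the lines, 0 in A549 with RG7112 and 3 higher in H1792 with RG7112.

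The genes whose pattern was most like that of CDH1, CDH2 and VIM were found by Pearson's r of log2(CPM + 1) over the 12 samples among 11666 genes. They were TMEM178B (0.977), POF1B (0.973) and CXADR (0.970) for CDH1, ARHGEF2 (0.987), PSPH (0.982) and PRDM8 (0.981) for CDH2, and CGREF1 (0.997), PSMD2 (0.997) and CCDC181 (0.996) for VIM. The 12 samples fall into the 2 cell lines, so these values mostly restate the difference between the lines.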

How the data were processed

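Poly-A RNA of 12 samples was sequenced in pairs on a NextSeq500 per the labels (the study's methods name another instrument). The authors estimated transcript abundance with kallisto 0.45.0 on Ensembl GRCh38.95 and summed it to genes with biomaRt, and the deposited values are expected counts held as whole numbers. Of the 20595 genes, 18011 identifiers were found in GENCODE v29, which gave symbols, positions, transcript lengths and GC content. Counts were filtered (filterByExpr, minimum count 10, minimum total 15) and tested with edgeR 4.0.16 (R 4.3.3, TMM, robust quasi-likelihood test, Benjamini-Hochberg adjustment over all genes tested); DEGs also had an absolute log2 fold change over 1. The standard error is the log2 fold change divided by the root of F. For genes too low for the filter, the group means of log2(CPM + 1) were permuted exactly over samples (two-sided); CPM per kb was taken over the principal transcript. The procedure was tested on simulated data. Alternatives were DESeq2 1.42.0, limma 3.58.1, other scalings and filters, a loess correction for GC content (span 0.5), a replicate block and the omission of each sample. The 10 genes were always named. Of each further list, up to 3 genes a comparison were named by rule, those past the thresholds without overlap and with the largest change, and other names were added after their values were seen. Members and lists were chosen with earlier results of these data known. Depth was 2011916 to 6218825 counts, and intervals cover counting error only.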

Additional observations from a re-analysis of the deposited data

Results flagged for a closer look

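No member had a response that differed between the lines past the threshold (edgeR, difference of the log2 fold changes in A549 and in H1792, adjusted over 11666 genes), and 21 genes of the other lists did. Of these, 11 had a lower response in A549, namely CCND1 (difference -6.08, adjusted p = 0.0215), MYC (-1.87, adjusted p = 0.000245), TGFBR3 (-1.87, adjusted p = 0.0422), SMAD4 (-1.73, adjusted p = 0.00583), TJP1 (-1.59, adjusted p = 0.0301), ADAM10 (-1.49, adjusted p = 0.0330), CTNND1 (-1.45, adjusted p = 0.00894), SMAD6 (-1.32, adjusted p = 0.0408), CSNK1A1 (-1.32, adjusted p = 0.00973), SMAD3 (-1.08, adjusted p = 0.0420) and AXL (-0.87, adjusted p = 0.0224). MYC changed by -1.32 in A549 and 0.64 in H1792, and passed the test in both lines.

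The other 10 had a higher response in A549. BTRC (4.03, adjusted p = 0.0206) changed by -0.22 in A549 and -4.17 in H1792. The p53 targets were CDKN1A (3.40, adjusted p = 0.0450) and MDM2 (3.12, adjusted p = 0.00604). The others were TCF7 (2.28, adjusted p = 0.0320), KRT19 (1.93, adjusted p = 0.000460), KRT7 (1.21, adjusted p = 0.0149), PLEC (1.03, adjusted p = 0.00138), NECTIN2 (0.78, adjusted p = 0.0163), KRT8 (0.77, adjusted p = 0.0198) and CTNNA1 (0.55, adjusted p = 0.0494). Of the 19 genes other than the p53 targets, 16 passed with library size as the only scaling and 10 with the GC correction, and 0 turned their sign.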

How the results depend on the processing

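Of the values recomputed for single named genes, 1215 kept their direction and their side of the threshold, 28 turned their sign, 67 lost a call and 13 gained one. In A549 the count of genes that passed, 900, became 1438 with DESeq2 and 1557 with all 12 samples in one fit, and ranged from 321 to 725 on leaving out single libraries (DEGs, 665, from 310 to 526), while the count of members stayed at 0. In H1792 members that passed went from 3 to 5 with library size only, to 1 with the GC correction and to between 2 and 4 on leaving out single libraries. The 3384 genes that passed and the 1450 DEGs in H1792 ranged from 1851 to 3377 and from 920 to 1642 on leaving out single libraries, and without replicate 3 of both treatments 0 genes passed, with 0 DEGs and 0 members. Between the lines in DMSO, members that passed ranged from 3 to 5 around 4, and 3665 DEGs became 2126 with 10 counts in every sample. For the difference in response, members that passed went from 0 to 2 with DESeq2, 3 with library size only and 1 with 10 counts in every sample, and to 0 or 1 on leaving out single libraries, where genes that passed, 2539, ranged from 1584 to 2978. Library size only moved the share of calls that were higher from 53.3% to 63.3% between the lines and from 47.7% to 23.0% in the difference in response, with the median of all genes at -0.37.

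The replicate numbers are not stated to pair the samples, and the correlation of same-numbered deviations ran from 0.0749 to 0.317 in A549, from -0.0505 to -0.00210 in H1792 and from -0.0855 to 0.118 between the lines. Same-numbered samples correlated best with each other for 1 of 3, 0 of 3 and 2 of 3 numbers. With the replicate block, genes that passed in H1792 fell to 1840 and ZEB2 stood at an adjusted p of 0.0562, and ZEB1 alone passed in the difference in response (1 member, adjusted p = 0.0210). With the replicate block and the GC correction, H1792 gave 909 genes, 536 DEGs and 1 member, and the difference in response 1647 genes.

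Signs turned in A549 for ZEB1 with the GC correction (0.0597, and 0.0901 with the block too). Leaving out single libraries in A549 gave ranges of -0.0502 to 0.82 for CDH1, -0.13 to 0.43 for CDH2 and -0.43 to 0.17 for ZEB1. In H1792, VIM turned with library size only (0.16) and with the GC correction (0.0335, and 0.0347 with the block too), CTNNB1 with the GC correction (-0.17 and -0.17) and with all 12 samples (-0.0111), and JUP with the GC correction (0.26 and 0.26). In the difference in response, VIM turned with DESeq2 (0.0052) and with RLE size factors (0.0064), and with the GC correction, without and with the block, so did CDH2 (0.12 and 0.21), ZEB2 (0.41 and 0.34), CTNNB1 (0.22 and 0.22) and JUP (-0.0507 and -0.0621). On leaving out single libraries that difference ran from -0.74 to 2.18 for CDH1 and from -0.50 to 0.13 for ZEB2. The cause was not tested. Depth limits what low genes can show, since 3 counts correspond to 0.483 to 1.39 CPM.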
